A study of Mus musculus with 6 samples.

Results

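Sterol regulatory element-binding proteins (SREBPs) are transcription factors that switch on the genes with which a cell makes cholesterol and fatty acids. The genes followed here were a chosen list of 32: 18 enzymes of the route from acetyl-CoA to cholesterol, 9 enzymes that make, lengthen or desaturate fatty acids, and 5 genes that regulate SREBP or move sterols. Of these 32 genes 31 had a probe set that the platform annotation assigned to that gene alone, out of 18193 genes so named on the array. Acat2 had none and is not analysed here, and Sc4mol appears under its current symbol, Msmo1. Where a gene had several probe sets, the brightest on average over the 6 arrays stood for it, and all 31 of these lay above the signal filter used for testing.

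The cells were C2C12, a mouse myoblast line, in which an integrin alpha7 construct can be switched on with tetracycline. Undifferentiated cells grew for 36 h in medium with 20% serum, chick embryo extract and antibiotics. The noninduced group (3 samples) had no tetracycline and the induced group (3 samples) had 1 µg/ml; both groups carried the construct, so the drug and the transgene changed together and their effects cannot be told apart. Total RNA of each sample was hybridised to 1 Affymetrix Mouse430_2 array, which gives a scaled linear signal per probe set, and the series text calls the samples of a condition biological triplicates. The serum supplied lipid from outside the cells, and the labels give no measure of its sterol content.

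In cells rich in sterol, SREBP stays in the endoplasmic reticulum bound to the escort protein SCAP, which INSIG proteins hold in place. When sterol is scarce, SCAP carries SREBP to the Golgi, where proteases free the part that enters the nucleus. SREBP2, the product of Srebf2, mainly drives the sterol genes, and SREBP1, the product of Srebf1, mainly drives the fatty acid genes. Their targets carry sterol regulatory elements, often beside CCAAT boxes bound by NF-Y and GC boxes bound by Sp1. Proliferating myoblasts need both products for new membrane.

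Promoter sequence is shown for 6 members whose fold changes are described below, so that the letters these factors are known to bind can be seen beside the measurements. The lines give the 250 bases before the annotated start, 5′ to 3′ on the gene's strand, from RefSeq on GRCm38.p6. Capitals mark exact matches to 1 spelling of the sterol regulatory element, TCACNCCAC, and the CCAAT box, on either strand (the latter reads ATTGG on the opposite strand). The windows are chr13:119690101-119690350 (plus strand) for Hmgcs1, chr13:8885356-8885605 (plus) for Idi1, chr5:4104698-4104947 (minus) for Cyp51, chr9:42264301-42264550 (minus) for Sc5d, chr11:120824548-120824797 (minus) for Fasn and chr3:129532136-129532385 (plus) for Elovl6.
Hmgcs1: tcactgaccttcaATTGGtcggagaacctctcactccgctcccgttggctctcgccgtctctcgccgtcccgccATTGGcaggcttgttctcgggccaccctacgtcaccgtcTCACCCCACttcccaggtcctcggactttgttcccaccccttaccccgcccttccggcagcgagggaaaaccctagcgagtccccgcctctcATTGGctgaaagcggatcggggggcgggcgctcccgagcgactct
Idi1: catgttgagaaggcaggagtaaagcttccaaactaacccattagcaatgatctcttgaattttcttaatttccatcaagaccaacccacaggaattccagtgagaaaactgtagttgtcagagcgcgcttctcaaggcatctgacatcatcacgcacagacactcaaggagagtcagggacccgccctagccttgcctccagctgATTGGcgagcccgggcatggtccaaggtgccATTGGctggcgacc
Cyp51: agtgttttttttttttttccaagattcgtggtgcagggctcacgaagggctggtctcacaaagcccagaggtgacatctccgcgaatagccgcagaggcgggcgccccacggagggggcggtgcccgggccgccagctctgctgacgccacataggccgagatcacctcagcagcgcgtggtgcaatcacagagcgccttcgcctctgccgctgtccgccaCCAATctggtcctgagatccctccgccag
Sc5d: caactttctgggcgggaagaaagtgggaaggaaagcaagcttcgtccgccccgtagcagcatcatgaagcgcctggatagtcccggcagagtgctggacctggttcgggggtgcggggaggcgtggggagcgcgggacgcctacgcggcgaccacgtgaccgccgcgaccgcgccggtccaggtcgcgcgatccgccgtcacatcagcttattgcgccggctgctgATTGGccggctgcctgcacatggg
Fasn: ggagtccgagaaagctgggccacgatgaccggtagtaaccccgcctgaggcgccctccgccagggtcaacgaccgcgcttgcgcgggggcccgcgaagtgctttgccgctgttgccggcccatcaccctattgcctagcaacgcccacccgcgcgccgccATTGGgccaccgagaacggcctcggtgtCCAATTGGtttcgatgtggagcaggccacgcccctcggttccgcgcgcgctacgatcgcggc
Elovl6: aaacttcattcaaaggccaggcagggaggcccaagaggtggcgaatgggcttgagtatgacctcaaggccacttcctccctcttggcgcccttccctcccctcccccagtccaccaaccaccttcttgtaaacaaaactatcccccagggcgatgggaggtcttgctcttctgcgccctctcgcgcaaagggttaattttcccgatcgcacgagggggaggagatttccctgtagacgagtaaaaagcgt
Hmgcs1 has 1 match to TCACNCCAC, which begins 137 bases before the start, and 3 CCAAT boxes in the stretch shown. In Fasn 2 of the 3 CCAAT boxes overlap, 1 on each strand. The stretch of Elovl6 has neither motif.

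The motif letters were counted over full windows, which run from 250 bases before to 50 after a start, for the 24 measured members found in the RefSeq table. All 14 sterol enzymes with a window had a CCAAT box in at least 1 window, as did 3 of 6 fatty acid enzymes and 3 of 4 regulators. Among all 27025 genes of the table the share was 41.1%. A GC box, GGGCGG on either strand, was in 13 of the 14 sterol enzymes, 3 of 6 fatty acid enzymes and 4 of 4 regulators, against 38.2% of all genes. TCACNCCAC was found in Hmgcs1 and in no other member with a window, against 1.44% of all genes. Only exact matches to this spelling were counted, so sterol regulatory elements spelled otherwise would be missed. These counts describe letters in a fixed window; they are not measurements of binding, and genes with several annotated starts had more sequence to search.

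Before the pathway, the label was checked against the targeted gene. Itga7 gave signals of 811, 778 and 786 on noninduced arrays 1 to 3 and 675, 727 and 676 on those labelled induced. The gene was thus not higher where the construct should have been switched on (log2 fold change -0.19, SE 0.058, limma adjusted p = 0.181). The labels do not say which part of the transcript the construct carries, so this probe set may not see it. The treated samples are therefore called the arrays labelled induced, and each direction given here rests on that label. The group named in each array's instrument record was the same as in its title. This does not show whether the construct was switched on.

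The arrays had properties of their own that moved with the group. Fluidics runs were inferred from gaps between the recorded hybridization times. By these, all noninduced arrays and replicate 1 labelled induced fell in a first run, and replicates 2 and 3 labelled induced in a second. Every noninduced array was scanned before any other. Scan order and group therefore cannot be told apart. The median signal was 24.99, 25.9 and 27.7 on the 3 noninduced arrays and 22.9 to 24.9 on those labelled induced, and the 3′ to 5′ signal ratio of Gapdh was 0.793 ± 0.0077 and 0.773 ± 0.011 (SD, n = 3 each). That of Actb went the other way, 1.103 ± 0.0045 and 1.126 ± 0.0146, and in both genes the groups did not overlap. The part of these differences in the results was not tested. The 6 myoblast markers fixed for this work had a summed signal of 5866 to 5983 and 5533 to 5817 (noninduced first). Of these, 5 lay above the filter, Myod1, Myf5, Des, Cdh15 and Chrna1, while Pax7 was dim. Myod1 and Chrna1 were lower without overlap (all genes, 11.6%), at log2 fold changes of -0.17 and -0.12. Cdh15 was at -0.12, and Myf5 and Des at 0.12 and 0.07. All 4 adipocyte markers on the array (Adipoq, Fabp4, Lep and Cidec) lay below the filter, with no signal above 19.3. Muscle differentiation markers, 2 of 6 above the filter, summed to 234 to 298 and 239.6 to 281 (noninduced first). Of these 2, Acta1 was at 0.25, higher without overlap (all genes, 10.7%), and Myog at -0.25 with overlap. Neither passed the adjusted threshold. Macrophage markers, 4 of 5 above the filter, summed to 294 to 344 and 272 to 304. Their mean signals over all arrays were 168 for Cd14, 70.9 for Csf1r, 31.5 for Adgre1 and 23.9 for Cd68, the last just above the filter. Ptprc, at 5.3, lay below it.

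Enzymes of cholesterol synthesis had lower transcript signals on the arrays labelled induced. All 17 measured sterol enzymes had a negative log2 fold change, from -0.40 to -0.13, with a median of -0.24, which is 15.1% lower. Hmgcs1, which makes HMG-CoA at the head of the route, and Sqle, the squalene epoxidase that makes the first oxygenated sterol precursor, fell past an adjusted p of 0.05. The other 15 did not pass, and none rose. When each array was centred on its median, all 17 were still negative, but neither gene passed. The list's median was then -0.14, and that of all genes 0.08. Without this centring, the median across the 10775 genes tested by their brightest probe set was -0.01. Of these genes 52.2% had a negative fold change, and 0.306% passed, 0.111% lower and 0.195% higher. Fold changes are differences of log2(signal + 16), tested with limma and adjusted over 22518 probe sets. In a bulk sample, fewer cells with a transcript and less of it per cell cannot be told apart.

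The shift of the sterol enzymes was also seen at looser thresholds and in the single arrays. At an unadjusted p under 0.05 there were 13 of the 17 sterol enzymes on the lower side, against 7.99% of all genes, and at an adjusted p under 0.10 there were 4 (Hmgcs1, Sqle, Idi1 and Sc5d), against 0.436%. Under an unadjusted 0.01 there were 7 (all genes, 2.5%). The groups did not overlap, with the arrays labelled induced lower, in 11 of 17 (all genes, 11.6%). Replicate 1 labelled induced lay below the lowest noninduced array for 16 of the 17 enzymes, replicate 2 for 15 and replicate 3 for 12. For the 9 fatty acid enzymes the counts were 2, 4 and 4. The share of all genes was not computed for single arrays, so these counts have no background to be read against. The median deviation of the 17 enzymes from the noninduced mean was -0.28, -0.21 and -0.22 on replicates 1 to 3 labelled induced, and -0.02, 0.05 and -0.02 on the noninduced arrays. Since the list was chosen with earlier results of these arrays known, these counts describe it and are no independent support.

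**Figure D1:**
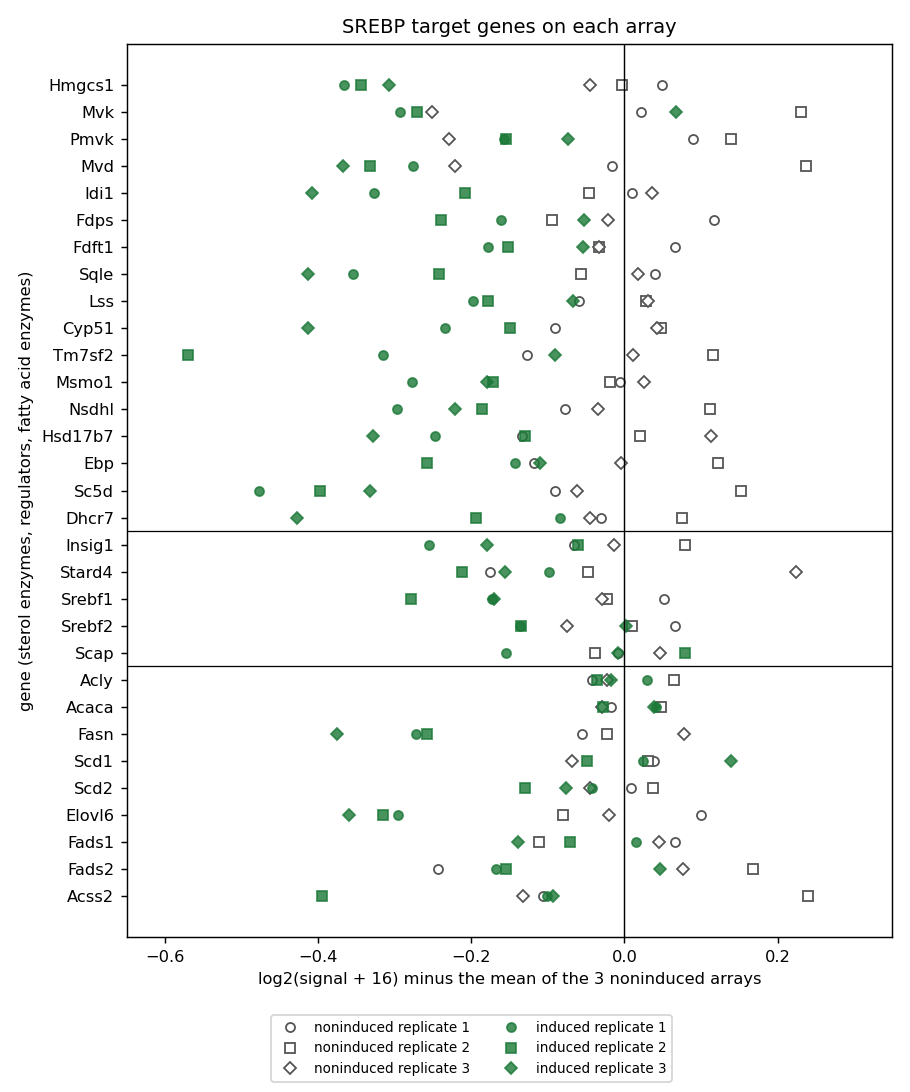
Each row is a gene and each point an array: the x axis is log2(signal + 16) of the brightest probe set minus the mean of the 3 noninduced arrays (open symbols, noninduced; filled, labelled induced; shapes give the replicate number). Filled points lie left of all open points in 11 of the 17 sterol enzymes, and in Srebf1, Fasn and Elovl6 among the others.

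The first steps of the route build isoprenoid units from acetyl-CoA. Hmgcs1 gave 1567, 1511 and 1467 on noninduced arrays 1 to 3 and 1171, 1189.7 and 1220.3 on arrays 1 to 3 labelled induced. The groups were well separated, with a gap larger than the range within either. The group means were 1515 ± 50.02 and 1194 ± 24.9 (SD, n = 3 each). The fitted level fell by 0.34 on the log2 scale (SE 0.050, 95% interval -0.45 to -0.23, limma adjusted p = 0.0219), which is 21.0% lower. The other tested probe sets of Hmgcs1 gave -0.14, -0.24 and -0.41 and did not pass, the first being of the _x_at kind, whose probes can match other transcripts.

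The kinases and the decarboxylase that follow were less clear. Mvk, mevalonate kinase, gave 142, 167 and 115 against 111, 113 and 147, and the groups overlapped. Its log2 fold change was -0.17 (95% interval -0.47 to 0.14), and a second probe set gave 0.02. Pmvk, phosphomevalonate kinase, was at -0.13 (-0.38 to 0.12). Mvd, the decarboxylase that yields isopentenyl diphosphate, was at -0.33 without overlap, but its second probe set was at 0.02.

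Idi1, which interconverts the isoprenoid building blocks, gave 615, 591 and 627 on noninduced arrays and 483, 526 and 456 on those labelled induced. Every array labelled induced was below every noninduced one. The log2 fold change was -0.31 (SE 0.069, adjusted p = 0.0878), just outside the threshold, and its other probe set gave -0.36. Fdps, which joins the units to farnesyl diphosphate, gave 2334, 2014 and 2119 against 1922, 1819.6 and 2073, so that replicate 3 labelled induced lay within the noninduced range. Its log2 fold change was -0.15 (SE 0.064, adjusted p = 0.306). The 6 enzymes from Hmgcs1 to Fdps had a median of -0.24.

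The middle steps commit farnesyl diphosphate to sterols. Sqle gave 1683, 1572 and 1656 on noninduced arrays and 1277, 1380.5 and 1224 on those labelled induced. The groups were separate on this single probe set of the gene. The means were 1637 ± 57.6 and 1294 ± 79.4 (SD, n = 3 each), and the log2 level fell by 0.34 (SE 0.057, 95% interval -0.46 to -0.21, limma adjusted p = 0.0397), which is 20.8% lower. Fdft1, squalene synthase, and Lss, which closes the ring to lanosterol, had smaller differences of -0.13 and -0.15 without overlap. The brightest probe set of Fdft1 was also of the _x_at kind. The second tested probe sets of Fdft1 and Lss were at -0.19 and -0.05.

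The 8 measured enzymes that trim and rearrange lanosterol into cholesterol were all at an unadjusted p under 0.05 on the lower side (all genes, 7.99%), with a median of -0.24, and none passed the adjusted threshold. Sc5d, a sterol desaturase late in the route, had the most negative value among the brightest probe sets of the members. It gave 248, 297 and 254 against 186, 197.7 and 208, with no overlap. The log2 fold change was -0.40 (SE 0.092, adjusted p = 0.0971), and its dimmer probe sets gave -0.32 and -0.18. Cyp51, the lanosterol demethylase, gave 427, 472 and 469.9 against 385, 409.6 and 338. Here too the groups were apart, at -0.27 (SE 0.082, adjusted p = 0.181), and the dimmer probe sets gave -0.20 and -0.50.

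Msmo1 and Nsdhl act together in removing the methyl groups of lanosterol. Msmo1 gave 567, 562 and 580.1 against 467, 504 and 501, a log2 fold change of -0.21 (SE 0.063, adjusted p = 0.164). Nsdhl gave 581, 664 and 599 against 496, 538 and 524, at -0.23 (SE 0.069, adjusted p = 0.163). In both genes the arrays labelled induced were all below the noninduced ones. Hsd17b7, the reductase of the same complex, was at -0.24 on a probe set of the _x_at kind. Its 3 dimmer tested probe sets were negative as well (-0.16, -0.41 and -0.29). Tm7sf2, a sterol reductase, was at -0.33, Ebp, a sterol isomerase, at -0.17, and Dhcr7, which reduces the last precursor to cholesterol, at -0.24. Of these 4 genes, Dhcr7 alone had groups that did not overlap on the brightest probe set. Counted by probe set, 30 of 32 tested probe sets of the sterol enzymes were negative, against 52.6% of all probe sets tested, and both exceptions were the second probe sets of Mvk and Mvd.

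**Figure D2:**
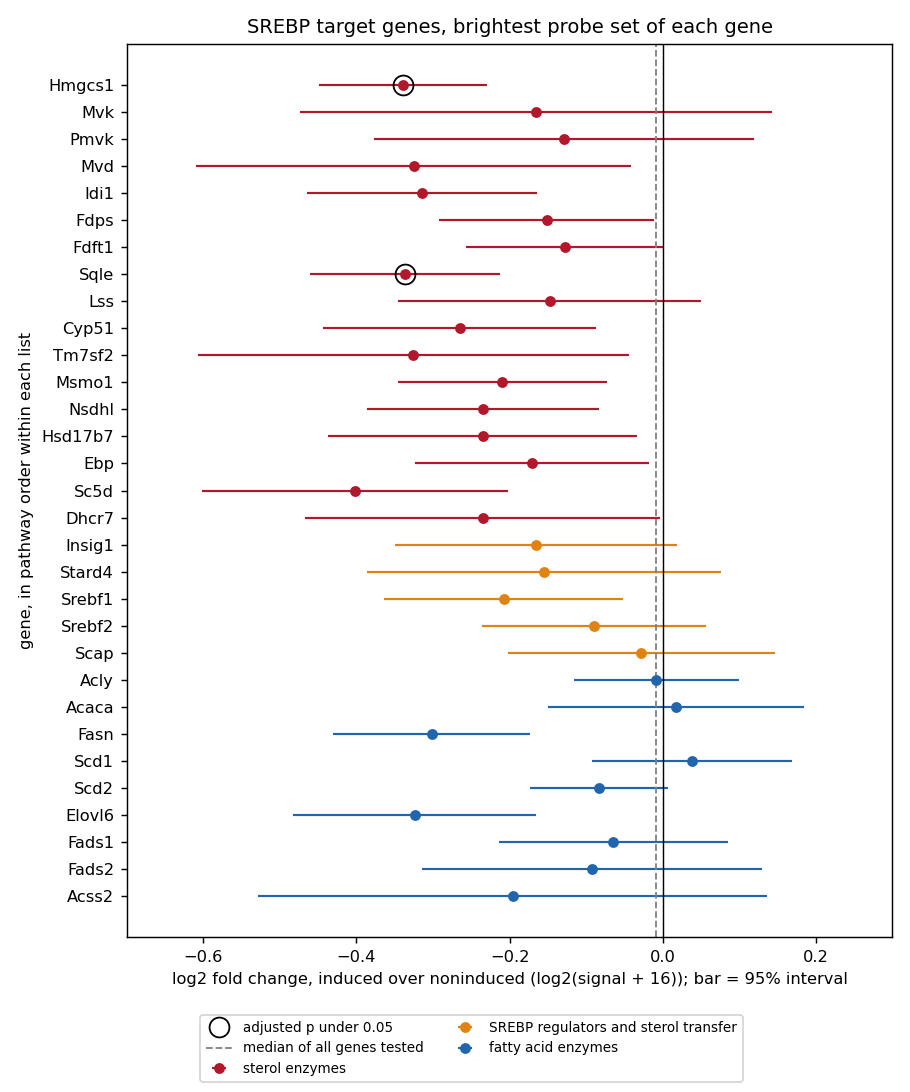
Log2 fold changes of the 31 measured genes (points) with their 95% intervals (bars), in pathway order within each list; the dashed line is the median of all genes tested, -0.01. The 17 sterol enzymes lie between -0.40 and -0.13, and Hmgcs1 and Sqle (ringed) are past an adjusted p of 0.05; among the fatty acid enzymes the intervals of Fasn and Elovl6 do not reach 0.

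Fatty acid enzymes did not move together. Of the 9 measured, 7 were negative (all genes, 52.2%) and 2 positive, with a median of -0.08 that turned to 0.011 when each array was centred on its median. None was past an adjusted p of 0.05 (limma; 2 at an unadjusted p under 0.05, against 7.99% of all genes on the lower side). These 2, Fasn and Elovl6, had an adjusted p under 0.10 (all genes, 0.436%) and groups that did not overlap on the brightest probe set (11.6%), unlike the other 7. Fasn, which builds palmitate, gave 1094, 1119.7 and 1202 on noninduced arrays and 939, 949 and 874 on those labelled induced. The lowest noninduced array was thus well above the highest of the other group. On the log2 scale the difference came to -0.30 (SE 0.059; the 95% interval ran from -0.43 to -0.17), with a limma adjusted p of 0.0639. Elovl6, which lengthens palmitate, gave 456, 400.5 and 418 against 343, 338 and 327. Its value was -0.32 (SE 0.073, adjusted p = 0.0940), and its other probe sets gave -0.12 and -0.44.

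Other enzymes of the list supply the carbon for this synthesis. Acly, which supplies acetyl-CoA from citrate, gave 1746, 1882 and 1770.4 against 1836, 1753 and 1776, fully interleaved. Its log2 fold change was -0.01 (95% interval -0.12 to 0.10), with 0.08 and -0.09 for its other tested probe sets. Acaca, which makes malonyl-CoA, was at 0.02 (-0.15 to 0.19), so a fall of the size of that in Fasn lay outside the interval of this probe set. Its dimmer tested probe set was at -0.12 (-0.40 to 0.15), an interval that includes such a fall. Acss2, which activates acetate, was dim (69.9 on average), at -0.20 with a wide interval (-0.53 to 0.14), and its second tested probe set was at 0.17.

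None of the desaturases passed the test. Scd2, a stearoyl-CoA desaturase, gave 6167, 6288 and 5939 against 5954, 5599 and 5813, and replicate 1 labelled induced lay just inside the noninduced range. It was at -0.08 (SE 0.041, adjusted p = 0.383), and 0.011 after median centring. Its second probe set, also bright, was at -0.15 (95% interval -0.26 to -0.03, adjusted p = 0.233) with groups that did not overlap, and the third was at -0.08. Scd1, its homologue, was at 0.04 (95% interval -0.09 to 0.17), and its second probe set was at 0.06. Fads1 and Fads2, which desaturate long polyunsaturated fatty acids, were at -0.06 and -0.09 (0.029 and 0.0012 after median centring).

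The medians of the sterol and fatty acid lists differed by -0.15 (sterol minus fatty acid). This is a description, since genes are not replicates and no test across lists was made. The difference lay between -0.23 and -0.12 under every alternative run, including median centring, which shifts both lists equally. On the arrays, the fatty acid list was at -0.04, -0.13 and -0.08 on replicates 1 to 3 labelled induced. Of all genes 9.23% lay at or below the sterol median and 31.0% at or below that of the fatty acid list.

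**Figure D3:**
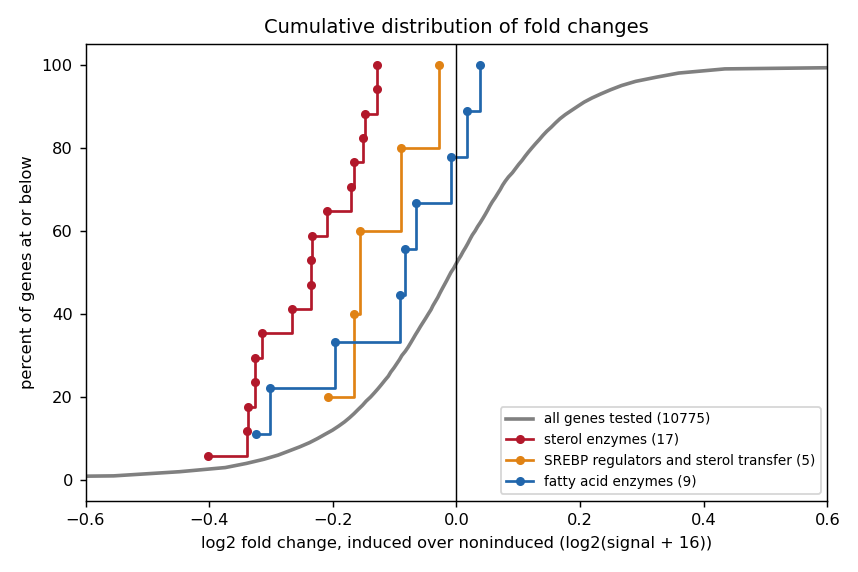
Cumulative percentage of genes (y axis) at or below each log2 fold change (x axis) for the 3 lists and for all 10775 genes tested (grey). The sterol curve lies wholly below 0, and the fatty acid curve runs from -0.32 to 0.04.

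The regulators of SREBP were negative on all 5 brightest probe sets (all genes, 52.2%), with a median of -0.16. None passed in limma, and 1, Srebf1, was at an unadjusted p under 0.05, against 7.99% of all genes on the lower side. After median centring 3 of 5 were negative, where the median of all genes was 0.08. Srebf1 gave 384, 364 and 362 against 326, 302 and 326 and was the one whose groups did not overlap (all genes, 11.6%). Its log2 fold change was -0.21 (SE 0.072, limma adjusted p = 0.221). The annotation names the gene and not the transcript forms that this probe set measures, so these forms cannot be told apart. Srebf2 gave 652, 627 and 590.1 against 565, 565 and 623, with overlap, at -0.09 (SE 0.067, adjusted p = 0.569; 0.0031 after median centring). Scap, the escort, was at -0.03 (95% interval -0.20 to 0.15; 0.065 after median centring).

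Insig1 and Stard4 are themselves SREBP targets. Insig1, which retains SCAP when sterol is plentiful, gave 257, 286 and 268 against 224, 258 and 237, with a log2 fold change of -0.17 (SE 0.084, adjusted p = 0.392). Stard4, a carrier of cholesterol between membranes, depended on the probe set. Its brightest gave -0.16 with overlap, while a second one gave 262, 241 and 221 against 178, 162 and 157. That probe set was at -0.50 (SE 0.093, 95% interval -0.70 to -0.29, adjusted p = 0.0560), and the third gave -0.29. All 3 tested probe sets of Stard4 were negative, but the groups were apart on the second alone.

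The wider pathway was followed in 41 further genes on 4 lists, of which 36 were on the array and 32 above the filter. None was past an adjusted p of 0.05 in either direction (limma; at an unadjusted p under 0.05, 2 lower and 3 higher, where all genes had 7.99% and 7.96%), and 16 were negative and 16 positive, with a median of 0.01. Of the other genes of SREBP processing (4 tested, median 0.15), Insig2, the paralogue of Insig1, gave 513, 479 and 501 against 571, 551 and 624. Mbtps2, a protease that releases SREBP, gave 304, 298 and 311 against 376, 349 and 369. Both had higher arrays in the group labelled induced without overlap, as did 10.7% of all genes. Their log2 fold changes were 0.22 (SE 0.068, adjusted p = 0.184) and 0.25 (SE 0.070, adjusted p = 0.151), opposite in sign to Insig1. The dimmer probe sets of Insig2 gave 0.07 and 0.20, both with overlap. Rnf139, a ubiquitin ligase of the endoplasmic reticulum and the brightest of the list, was at -0.00059 (95% interval -0.14 to 0.14), and Mbtps1, the protease that cuts first, at 0.08.

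The branch of the route that leads to other isoprenoids had 9 genes tested, with a median of 0.02, no gene at an unadjusted p under 0.05, and Fnta, a farnesyltransferase subunit and the brightest of them, at 0.03. Of 7 tested genes of sterol storage, transport and the sterol-sensing LXR receptor, 3 were negative (median 0.06). Tmem97, a sterol-regulated membrane protein, was the one at an unadjusted p under 0.01 (all genes, 2.5% lower and 3.14% higher). It gave 599, 582 and 636 against 482, 526 and 503, with no overlap, at -0.26 (SE 0.065, adjusted p = 0.119). Npc2, which moves cholesterol out of lysosomes, was the brightest, at 0.06. A second bright probe set of Npc2 gave -0.03 and a dimmer one 0.16. Abca1, Abcg1 and Nr1h3 lay below the filter. Of 12 other genes of lipid synthesis 8 were negative (median -0.09). Elovl1, an elongase, gave 1278, 1356 and 1330.5 against 1160.0, 1211 and 1172, at -0.16 (SE 0.051, adjusted p = 0.194), on an _x_at probe set. Its other probe sets gave -0.09, -0.11 and -0.15 with overlap. Acsl4, an acyl-CoA ligase, gave 441, 329 and 434 against 535, 546 and 467, at 0.36 (SE 0.106, adjusted p = 0.163). Its other probe sets gave 0.15 and 0.06 with overlap. On the brightest probe set the groups were apart in Elovl1 and Acsl4, in opposite directions. Hsd17b12, a reductase of fatty acid elongation and the brightest of the list, was at -0.04.

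The 2 adjusted calls rested on all arrays and on the variance model. The sign of the sterol median held under every alternative, though the variance model could not have changed it. Both Hmgcs1 and Sqle missed the threshold in limma without a variance trend (adjusted p = 0.293 for each), with a term for the fluidics run (0.256 and 0.330) and after median centring (0.0791 and 0.101), and leaving out any single array kept at most 1 of them, Hmgcs1 without replicate 3 labelled induced. In the first fluidics run, where replicate 1 labelled induced is the only treated array, all 17 sterol enzymes were negative with a median of -0.28, and 5 of 9 fatty acid enzymes were. Median centring moved the median of all genes to 0.08. With the log2 values of all probe sets of a gene averaged, dim ones included, 15 of 17 were negative, Fdft1 and Lss being at 0.070 and 0.040.

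**Figure D4:**
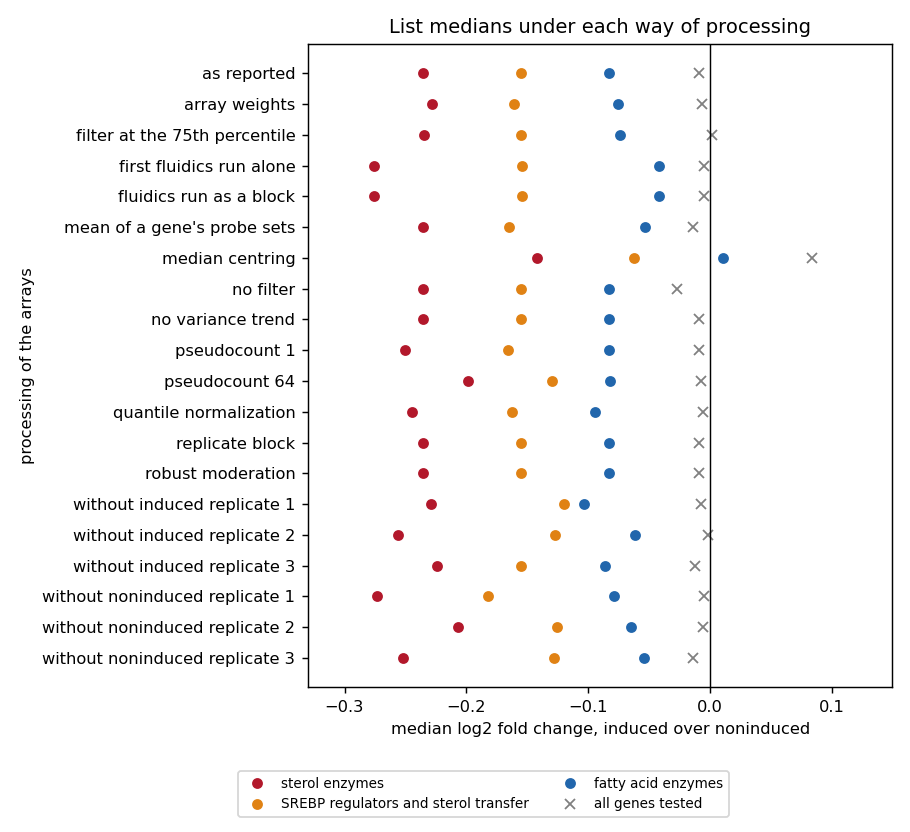
Median log2 fold change of each list (coloured points) and of all genes tested (crosses) under each way of processing, 1 row each. The sterol median runs from -0.28 to -0.14 and lies left of the other medians in every row; the fatty acid median runs from -0.10 to 0.01.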

How the data were processed

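Signals of 6 arrays (3 noninduced, 3 labelled induced, grouped by title) were used. The deposited intensity values are linear, 1 per probe set, and the submitters' processing notes name GCOS 1.1.1 for making them; its settings: not given in the sources used here. Each array's trimmed mean (2% off each tail) was 150.0, and this scaling hides any shift shared by most transcripts. The deposited instrument records (unit other) gave a hybridization time and a scan time for each array, per the file headers. Scan order follows the scan times, and the fluidics runs were inferred here from gaps between hybridization times. The number of arrays limits the precision.

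After 64 control probe sets were set aside, 45037 remained, of which 34945 had 1 gene in the platform annotation, 932 several and 9160 were not listed. Those brighter on average than 23.4, the median over probe sets, were tested as log2(value + 16), which understates changes of dim probe sets, with limma 3.58.1 in R 4.3.3 (variance trend, Benjamini-Hochberg over 22518 probe sets, threshold 0.05). Lists were described by counts and medians, with no set test. Only the limma fit was tested on simulated data, with its pass mark set on changes larger than those of the members. The normalization, list medians and promoter counts were not tested in this way. Genes with array values given are members past the adjusted threshold, at an unadjusted p under 0.01, of highest signal or of largest change in their list, with Acly, Mvk, Insig1, Stard4 and genes of the wider pathway as further examples chosen after their values were seen. Members and lists were chosen with earlier results of these data known. Alternatives were quantile normalization, median centring, other pseudocounts and filters, no variance trend, robust moderation, array weights, replicate number or fluidics run as a block, the first fluidics run alone, each array left out, and averaging all probe sets of a gene. With the first run alone, its single treated array is taken to vary like the others.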

Additional observations from a re-analysis of the deposited data

How the results depend on the processing

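The sterol median kept its sign under all 19 alternatives and the regulator median too. Of these, no variance trend, robust moderation, no filter and replicate blocks leave every fold change unchanged, so they could not alter a sign. The fatty acid median was 0.011 after median centring, where the median of all genes was 0.084. Median centring gave -0.14 for the sterol list, -0.062 for the regulators, 0 members past the threshold and 306 probe sets in all (12 lower and 294 higher, against 18 and 27 otherwise). Blocking on the fluidics run and using its first run alone gave equal values: the sterol median was -0.28, the fatty acid median -0.042 and their difference -0.23, with 0 members and 0 probe sets past the threshold in limma (1923 and 1976 at an unadjusted p under 0.05). Without a variance trend 0 members and 0 probe sets passed (2817 unadjusted), and with no filter 0 members and 1 probe set. Averaging all probe sets of a gene left 1 member, Sqle, and a regulator median of -0.17, which was -0.17 with a pseudocount of 1 and -0.13 with 64. The 45 probe sets past the threshold became 86 with array weights, 74 with robust moderation and 102 with the filter at the 75th percentile, where Fasn passed (adjusted p = 0.0489).

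Leaving out 1 array gave 0 to 50 probe sets (0 without replicate 1 labelled induced, 11 without its replicate 2, 1 without noninduced replicate 2 and 8 without noninduced replicate 3) and 0 to 1 members, with medians of -0.27 to -0.21 for the sterol list, -0.18 to -0.12 for the regulators and -0.10 to -0.05 for the fatty acid list; the difference of sterol and fatty acid medians was -0.20 to -0.13. With the replicate number as a block 5 probe sets and 0 members passed. Hmgcs1 was at a limma adjusted p of 0.0931 and Sqle at 0.109. Deviations of equally numbered arrays correlated at 0.01, -0.06 and -0.01, so these arrays shared little deviation. With so few arrays this cannot tell whether the samples were prepared in pairs.

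Of 585 values of single genes, 19 in 11 genes changed sign. Values without a variance trend, with robust moderation, with another filter or with replicate blocks equal the main ones and could not change sign. Median centring moved the median of all genes to 0.084. The genes that changed sign there were Srebf2 (0.0031), Scap (0.065), Acly (0.085), Scd2 (0.011), Fads1 (0.029) and Fads2 (0.0012). In both fits on the fluidics run they were Acly (0.030) and Fads1 (0.016). With probe sets averaged they were Fdft1 (0.070), Lss (0.040), Acaca (-0.053) and Acss2 (0.080), and with array weights Acly (0.00029). Leaving out 1 array gave -0.081 to 0.035 for Scap, -0.029 to 0.024 for Acly and -0.013 to 0.082 for Scd1. The cause of these changes was not tested. Acss2, Mvk, Mvd and Tm7sf2 lay under the 75th percentile of signal and have no value with that filter.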

Other observations

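In 2 further lipid genes, chosen after their values were seen, the probe sets of a gene disagreed in direction with neither passing the adjusted threshold. Acsl3, an acyl-CoA ligase, had a bright probe set at -0.15 and a dimmer one at 0.40, the latter giving 105, 86.6 and 91.8 on noninduced arrays and 126, 138 and 126 on those labelled induced (limma adjusted p = 0.354 and 0.146). Tecr, a reductase of fatty acid elongation, had probe sets at -0.11 and 0.21 (adjusted p = 0.444 and 0.240). The annotation does not say which transcript forms these probe sets measure.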
